A study of Oryza sativa Indica Group with 36 samples.

Results

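Jasmonate repressors of the TIFY family are represented here by 5 genes, TIFY10C (BGIOSGA029689), TIFY9 (BGIOSGA016308), TIFY11C (BGIOSGA011983), TIFY11D (BGIOSGA031997) and TIFY11A (BGIOSGA011332). They were taken as a list of identifiers, and all 5 were found among the 43254 genes of the deposited tables. The list does not hold every TIFY gene of the study, which also names TIFY6A and describes further TIFY genes that were not analysed here. The study describes its TIFY genes as ones that changed in these same libraries, so their direction of change is not independent evidence. RNA was taken from stems and leaves of wild-type seedlings of the indica rice cultivars 9311 (groups beginning with A) and DC907 (groups beginning with B), grown in nutrient solution to the four-leaf stage, and sequenced in 36 libraries. The study describes the cultivars as near-isogenic lines, with DC907 tolerant of cold and 9311 not. The 12 groups of 3 libraries were plants kept at room temperature (ACK and BCK), plants cooled to 8 ℃ for 1 day (AT1, BT1) or 3 days (AT3, BT3), and cooled plants returned to room temperature for 1 day (AT1H1, AT3H1, BT1H1, BT3H1) or 3 days (BT1H3, BT3H3, in DC907 only). The study describes the 3 libraries of a group as biological replicates. How many plants entered each library is not given in the sources used here.

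Proteins of the TIFY family carry a short conserved motif after which the family is named, and those of its JAZ class hold back the transcription factors that switch on jasmonate-responsive genes. When the active form of the hormone accumulates it joins a JAZ protein to an F-box receptor, the JAZ protein is degraded, and the transcription factors are released. Many JAZ genes are themselves among the genes switched on in this way, so a plant that responds to jasmonate makes its repressors anew. The transcript levels given here do not measure the proteins.

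TIFY9 was also measured by qRT-PCR in the study, and the primer pair that the study lists for its identifier, BGIOSGA016308, is shown. Both primers are 24 bases long, with 54.2% G and C, and both are printed 5′ to 3′ in lower case with no base marked.
TIFY9 forward: cgctccgatgacgctcttctacaa
TIFY9 reverse: ttagttgcctcggttgccatcctc

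Levels are given as FPKM, fragments counted per kilobase of gene and scaled to the library total, so the levels of different genes can be set side by side. The gene lengths used in the deposited FPKM were 699 bases for TIFY10C, 567 for TIFY9, 630 for TIFY11C, 516 for TIFY11D and 540 for TIFY11A. Each of the 5 symbols matched 1 gene in the RefSeq annotation of the japonica assembly ASM3414082v1. In that annotation TIFY11A and TIFY11C are neighbours with 0 protein-coding genes between them. How reads that match several related genes were counted is not given in the sources used here, so some reads of the TIFY11 genes may be shared between them.

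The libraries held 10176660 to 18789555 counts on genes, and the lowest total belonged to BT1 replicate 3, with the next lowest at 14412904. The cultivar labels were read on marker genes that separated the libraries of CK, T1 and T1H1 by cultivar, each group being read on markers chosen without it. The ACK, AT1 and AT1H1 libraries had 5.38% to 26.6% of the markers on the DC907 side, and the 21 DC907 libraries 73.4% to 98.7%. The 6 libraries labelled AT3 and AT3H1 had 82.1% to 96.2% of 78 markers on the DC907 side, which goes against their label. They are therefore named as labelled throughout, and their comparisons are given with ACK and with BCK as the control. None of the 5 TIFY genes was itself a marker.

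**Figure D1:**
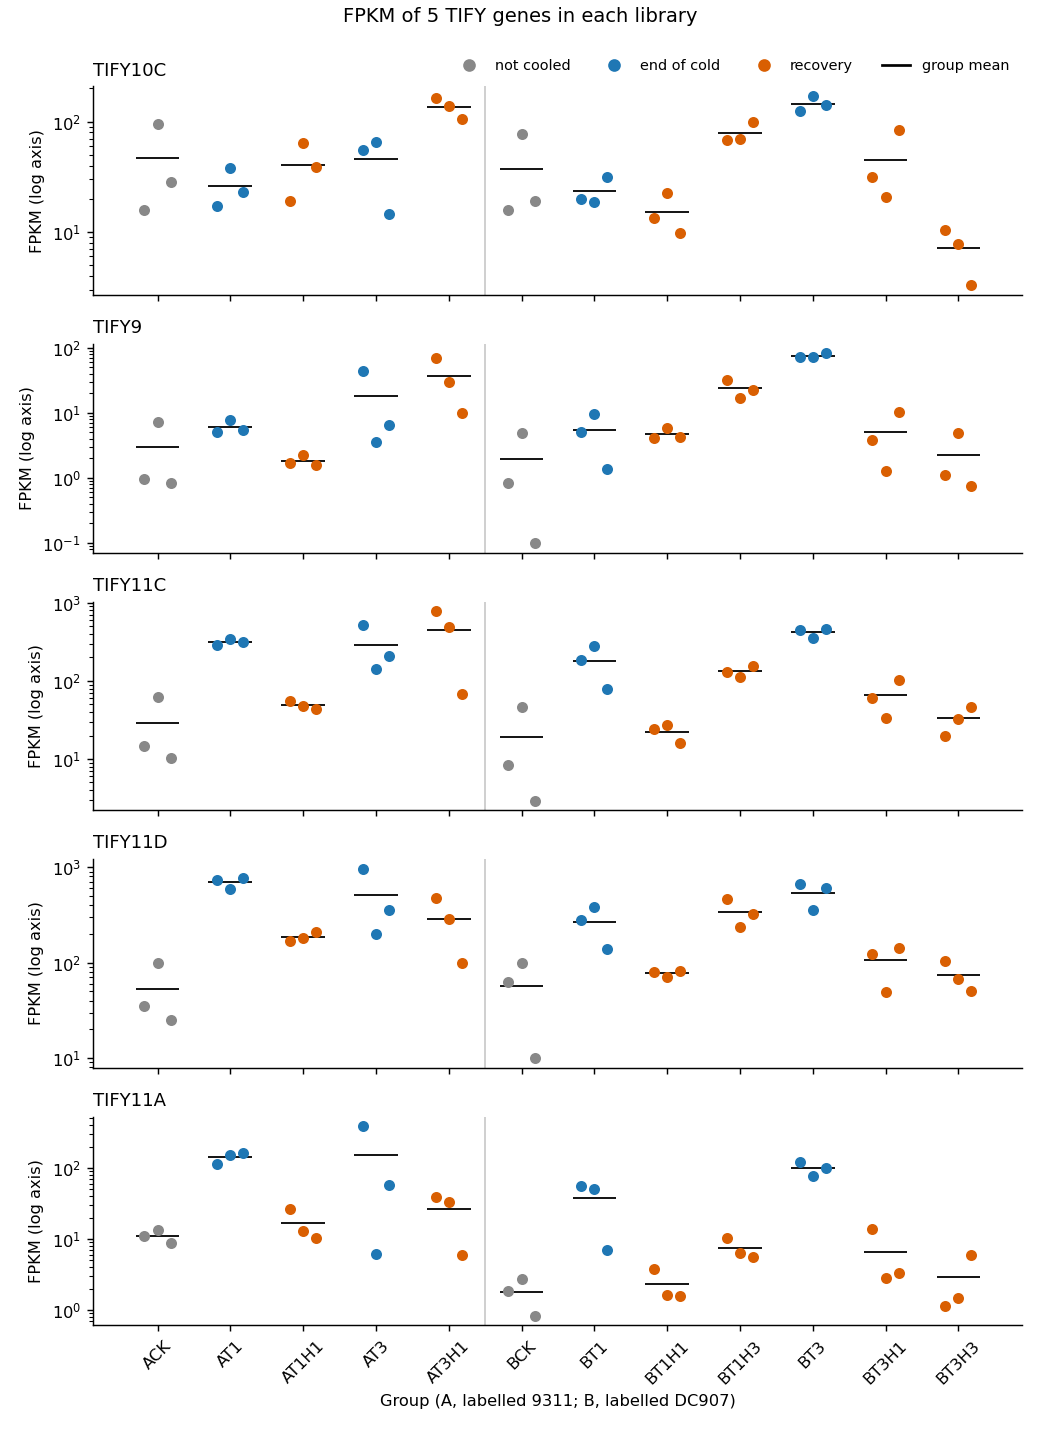
Each panel plots the FPKM of 1 TIFY gene on a log axis in every library of the 12 groups, with a line at the mean of the 3 libraries, and colours mark plants not cooled, at the end of the cold and in recovery. TIFY11C, TIFY11D and TIFY11A stand high in AT1 and BT3. TIFY10C and TIFY9 stand high in BT3 and in the libraries labelled AT3H1, where TIFY11C also has its highest mean.

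TIFY11D had the highest mean level of the 5 genes in every group except the libraries labelled AT3H1, where TIFY11C was higher. In plants that were not cooled its FPKM was 35.0, 99.7 and 24.9 in ACK and 62.7, 100.04 and 9.95 in BCK. After 1 day at 8 ℃ it was 738, 597 and 770 in AT1 and 281, 387 and 138 in BT1. After 3 days of cold it was 661, 357 and 610 in BT3 and 966, 201 and 357 in the libraries labelled AT3. Every library at the end of the cold thus lay above every library of plants not cooled. In RNA from whole shoots, fewer cells of a type and less RNA per cell cannot be told apart. After 1 day of recovery TIFY11D stood at 170, 182 and 211 in AT1H1, at 79.5, 70.8 and 82.3 in BT1H1 and at 124, 49.1 and 144 in BT3H1. After 3 days of recovery it stood at 469, 235 and 326 in BT1H3 and at 104, 68.1 and 50.7 in BT3H3. The BT1H3 libraries, from plants cooled for 1 day, were all above the BT3H3 libraries, from plants cooled for 3 days. For the libraries labelled AT3H1 the FPKM was 479, 285 and 100.4. By group mean, AT1 came first at 702 ± 91.8 (SD, n = 3) and ACK last at 53.2 ± 40.6 (SD, n = 3). Down the order of the 12 groups only AT1H1 and BT3H1 were neighbours whose libraries did not overlap.

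TIFY11C had the same broad course at a lower level. Its FPKM was 14.6, 63.1 and 10.2 in ACK and 8.27, 46.5 and 2.92 in BCK. It was 292, 340 and 319 in AT1, 186, 280 and 78.8 in BT1 and 448, 354 and 461 in BT3. The libraries labelled AT3 had 518, 142 and 207 FPKM, and those labelled AT3H1 had 786, 495 and 68.7. At the end of the cold every library was above every library of plants not cooled, and the library labelled AT3H1 replicate 3 was far below the other AT3H1 libraries. In recovery TIFY11C stood at 56.2, 48.2 and 43.2 in AT1H1, at 24.2, 27.0 and 16.2 in BT1H1 and at 61.0, 33.1 and 104 in BT3H1. After 3 days of recovery it stood at 131, 114 and 157 in BT1H3 and at 19.8, 32.3 and 47.1 in BT3H3, again with no overlap. The group means ran from 450 ± 361 (SD, n = 3) in the libraries labelled AT3H1 and 421 ± 58.3 in BT3 down to 19.2 ± 23.8 in BCK. Neighbours in this order overlapped except BT3 with AT1 and BT1H3 with BT3H1, and BT3 and AT1 overlapped too once the FPKM were rescaled by TMM (edgeR's trimmed mean of M-values).

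TIFY11A, whose overexpression is known to raise the salt tolerance of rice, had the widest range of group means as a ratio, the highest being 83.1 times the lowest. In FPKM the span from the lowest to the highest mean was wider for TIFY11D, at 648, and for TIFY11C, at 431, than for TIFY11A, at 148. TIFY11A was listed at 11.1, 13.5 and 8.83 FPKM in ACK and at 1.86, 2.72 and 0.827 in BCK, so that the controls of the cultivars did not overlap. At the end of 1 day of cold it had 112, 150 and 164 FPKM in AT1 and 55.9, 51.0 and 7.10 in BT1. At the end of 3 days it had 123, 76.9 and 101 in BT3. The libraries labelled AT3 were unlike each other, with 387, 6.17 and 57.1 FPKM. Within this group the highest library was 62.7 times the lowest, the largest such ratio among the 5 genes and 12 groups. After 1 day of recovery TIFY11A stood at 26.9, 12.8 and 10.2 in AT1H1, at 3.72, 1.63 and 1.57 in BT1H1 and at 13.6, 2.82 and 3.31 in BT3H1. After 3 days it stood at 10.5, 6.30 and 5.56 in BT1H3 and at 1.15, 1.46 and 6.01 in BT3H3. BT1H3 had rank 8 of the 12 groups for TIFY11A, against rank 4 for TIFY11D and rank 6 for TIFY11C. For the libraries labelled AT3H1 the FPKM was 39.2, 33.3 and 6.04. Its highest mean was that of the libraries labelled AT3, 150 ± 206 (SD, n = 3), followed by AT1 at 142 ± 26.6 and BT3 at 100.2 ± 22.9. The order was otherwise one of overlapping neighbours, apart from BT3 and BT1. After TMM rescaling AT1 came before the libraries labelled AT3 and no longer overlapped with BT3.

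TIFY10C had a different course. Its FPKM was 15.8, 95.4 and 28.2 in ACK and 15.8, 77.1 and 19.2 in BCK, with replicate 2 the highest in each control. At the end of 1 day of cold it had 17.2, 38.4 and 23.1 FPKM in AT1 and 19.9, 18.6 and 31.6 in BT1, inside the range of the controls. After 3 days of cold it had 126, 171 and 140 FPKM in BT3, above every BCK and BT1 library. In the libraries labelled AT3 it had 55.7, 66.0 and 14.6 FPKM, and those labelled AT3H1 had 163, 140 and 106. In early recovery it stood at 19.2, 64.0 and 38.6 in AT1H1, at 13.4, 22.5 and 9.80 in BT1H1 and at 31.3, 20.6 and 84.0 in BT3H1. After 3 days it stood at 68.8, 69.8 and 98.8 in BT1H3 but at 10.4, 7.73 and 3.27 in BT3H3, the lowest group of the 12. BT3 at 146 ± 23.3 (SD, n = 3) and the libraries labelled AT3H1 at 136 ± 28.9 overlapped and changed places after TMM rescaling. Both lay above BT1H3 without overlap, and all lower neighbours overlapped, except BT1 and BT1H1 after TMM rescaling.

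TIFY9 and TIFY11A had the lowest mean levels of the 5 genes in plants not cooled. The TIFY9 FPKM was 0.943, 7.13 and 0.817 in ACK and 0.836, 4.96 and 0.0984 in BCK, the last of these from 1 count. In the cold it had 4.99, 7.67 and 5.46 FPKM in AT1 and 5.02, 9.69 and 1.39 in BT1. The BT1 libraries overlapped both controls. Those of AT1 overlapped ACK but lay just above BCK, and after TMM rescaling they lay above ACK too. After 3 days of cold it had 71.7, 73.0 and 82.0 FPKM in BT3. These BT3 libraries lay above every other library of the series in FPKM, but after TMM rescaling the library labelled AT3H1 replicate 1, at 94.2, was above all of them. In the libraries labelled AT3 it had 44.3, 3.55 and 6.53 FPKM and those labelled AT3H1 had 70.2, 29.4 and 9.98. In early recovery TIFY9 stood at 1.71, 2.20 and 1.58 in AT1H1, at 4.06, 5.78 and 4.28 in BT1H1 and at 3.79, 1.29 and 10.2 in BT3H1. After 3 days it stood at 32.5, 16.6 and 22.8 in BT1H3 and at 1.10, 4.92 and 0.751 in BT3H3. The BT1H3 libraries were thus all above the BCK, BT1 and BT1H1 libraries. The mean of BT3, 75.6 ± 5.64 (SD, n = 3), did not overlap with the next group, the libraries labelled AT3H1, before this rescaling, and all lower neighbours overlapped.

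**Figure D2:**
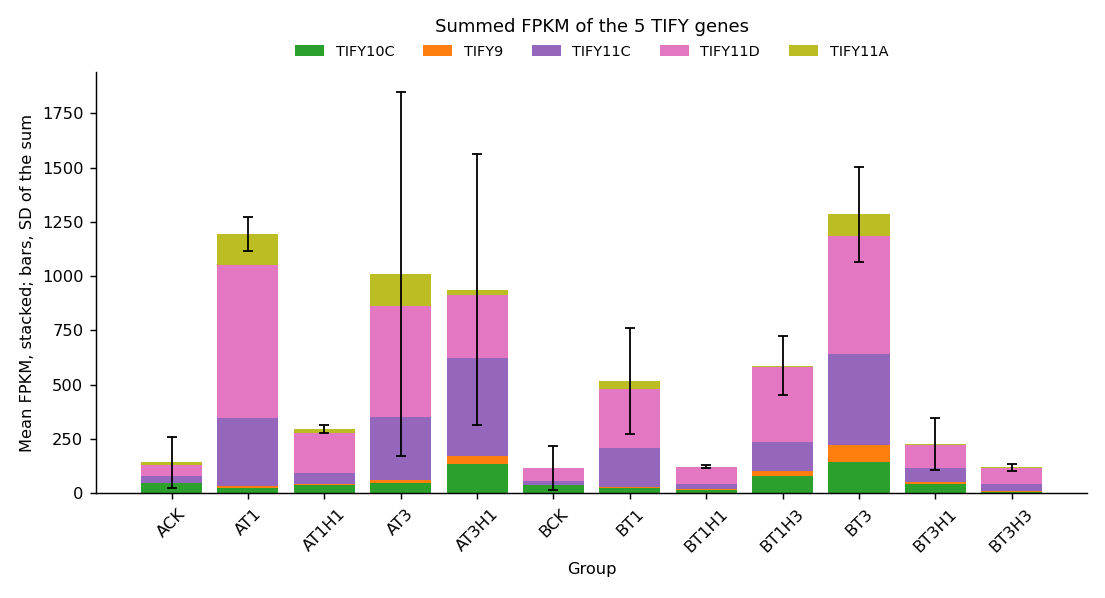
The stacked bars give the mean FPKM of the 5 TIFY genes in each group, and the error bars are the SD of their sum over 3 libraries. The sum was 1193 in AT1 and 1285 in BT3 against 143 in ACK and 118 in BCK, and TIFY11C and TIFY11D made up most of it at the end of the cold. The FPKM shown were not rescaled by TMM, after which AT1 came before BT3.

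The summed FPKM of the 5 genes was 143 ± 118 (SD, n = 3) in ACK and 118 ± 102 in BCK. It was 1193 ± 78.4 in AT1, 517 ± 246 in BT1 and 1285 ± 220 in BT3. After TMM rescaling AT1 came before BT3 in the sum. The rescaled means in AT1 and BT3 were 926 and 587 for TIFY11D and 413 and 451 for TIFY11C. They were 185 and 108 for TIFY11A, 33.3 and 153 for TIFY10C, and 7.78 and 80.2 for TIFY9. The share of each gene in the sum also differed between groups. TIFY10C made up 31.1% ± 9.55 (SD, n = 3) of the sum in ACK and 36.4% ± 20.4 in BCK, against 2.22% ± 1.02 in AT1 and 6.14% ± 5.36 in BT1. TIFY11D made up 58.7% ± 5.45 in AT1 and 52.3% ± 1.33 in BT1. In BT3 the shares were 41.5% ± 6.14 for TIFY11D, 32.9% ± 1.48 for TIFY11C, 11.8% ± 4.18 for TIFY10C, 7.76% ± 0.720 for TIFY11A and 5.99% ± 1.03 for TIFY9. The share of TIFY9 was 0.511% ± 0.144 in AT1. These are shares of FPKM and not of protein.

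The first comparison asked which TIFY transcripts changed after 1 day of cold. Differentially expressed genes (DEGs) are those that passed edgeR's quasi-likelihood test on the raw counts at a Benjamini-Hochberg adjusted p under 0.05 over all genes tested. In AT1 against ACK, 3 of the 5 genes were upregulated, and 16.8% of all genes tested were upregulated in the same comparison. The log2 fold change was 3.93 ± 0.74 (SE) for TIFY11C with an adjusted p of 0.0129. It was 4.22 ± 0.61 for TIFY11D with an adjusted p of 0.00759, and 4.13 ± 0.30 for TIFY11A with an adjusted p of 0.00401. TIFY9 at 1.51 ± 0.88 (adjusted p = 0.222) and TIFY10C at -0.35 ± 0.66 (adjusted p = 0.700) did not pass. The median log2 fold change was 3.93 over the 5 genes and -0.13 over all genes tested. The call of TIFY11C was lost without ACK replicate 3 (log2 fold change 3.40, adjusted p = 0.0565) and without AT1 replicate 3 (3.81, adjusted p = 0.0604). TIFY9 passed without ACK replicate 2 (3.15, adjusted p = 0.0164), the library in which all 5 genes were highest among the ACK libraries.

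In BT1 against BCK, 2 of the 5 genes were upregulated, with 13% of all genes tested upregulated. TIFY11A had a log2 fold change of 4.59 ± 0.91 (SE) with an adjusted p of 0.0179, and TIFY11C one of 3.57 ± 1.00 with an adjusted p of 0.0429. TIFY11D, at 2.44 ± 0.81, had an adjusted p of 0.0675, although its BT1 libraries were all above its BCK libraries. It passed with DESeq2 (adjusted p = 0.0112), in a joint fit of the 36 libraries with edgeR (0.0109) and with a replicate block (0.0499), so that DESeq2 called 3 of the 5, where it called 31.5% of all genes in either direction. TIFY9 at 1.80 ± 1.20 and TIFY10C at -0.42 ± 0.55 did not pass (adjusted p = 0.297 and 0.598). The call of TIFY11C held only without BCK replicate 2 among the 6 fits that left out 1 library, and it was lost without BCK replicate 1 or 3 (adjusted p = 0.0999 and 0.0750) and without BT1 replicate 1, 2 or 3 (0.110, 0.142 and 0.0526). The call of TIFY11A was lost without BCK replicate 3, BT1 replicate 1 or BT1 replicate 2 (adjusted p = 0.0552, 0.0657 and 0.0800).

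Whether the cultivars differed in the change over 1 day was tested as an interaction over 12 libraries with edgeR. For TIFY11D the log2 fold change was lower in DC907 than in 9311 by -1.71 ± 1.05 (SE), with an adjusted p of 0.913. TIFY11A (0.51 ± 0.89), TIFY9 (0.38 ± 1.61), TIFY11C (-0.28 ± 1.27) and TIFY10C (0.00 ± 0.98) had differences within 1 SE of 0. In that interaction 1 of 24831 genes passed (0.00403%), and 1050 of all genes but 0 of the TIFY genes had an unadjusted p under 0.05. In the same test after 1 day of recovery 0% of 24669 genes passed, and 0 of the 5 TIFY genes had an unadjusted p under 0.05, while 2146 of all genes did. The differences there included 1.80 ± 1.48 for TIFY9 and -1.64 ± 0.94 for TIFY11D, with edgeR adjusted p of 0.776 and 0.658. DESeq2 called 0 of the 5 in either interaction. A cultivar difference was thus not detectable with 3 libraries per group, which does not show that the cultivars responded alike.

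Before the cold, 0 of the 4 TIFY genes tested differed between BCK and ACK by edgeR, and TIFY9 was too low to be tested. The comparison called 0.0263% of all genes lower and 0.0176% higher in BCK, and 489 had an unadjusted p under 0.05. TIFY11A, whose BCK libraries were all below its ACK libraries, had a log2 fold change of -2.56 ± 0.55 (SE), an unadjusted p of 0.0028 and an adjusted p of 0.505. It was the 1 TIFY gene called by DESeq2 here, with an adjusted p of 0.00138 and 0.654% of all genes called, and its adjusted p reached 1.00 in other alternatives.

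**Figure D3:**
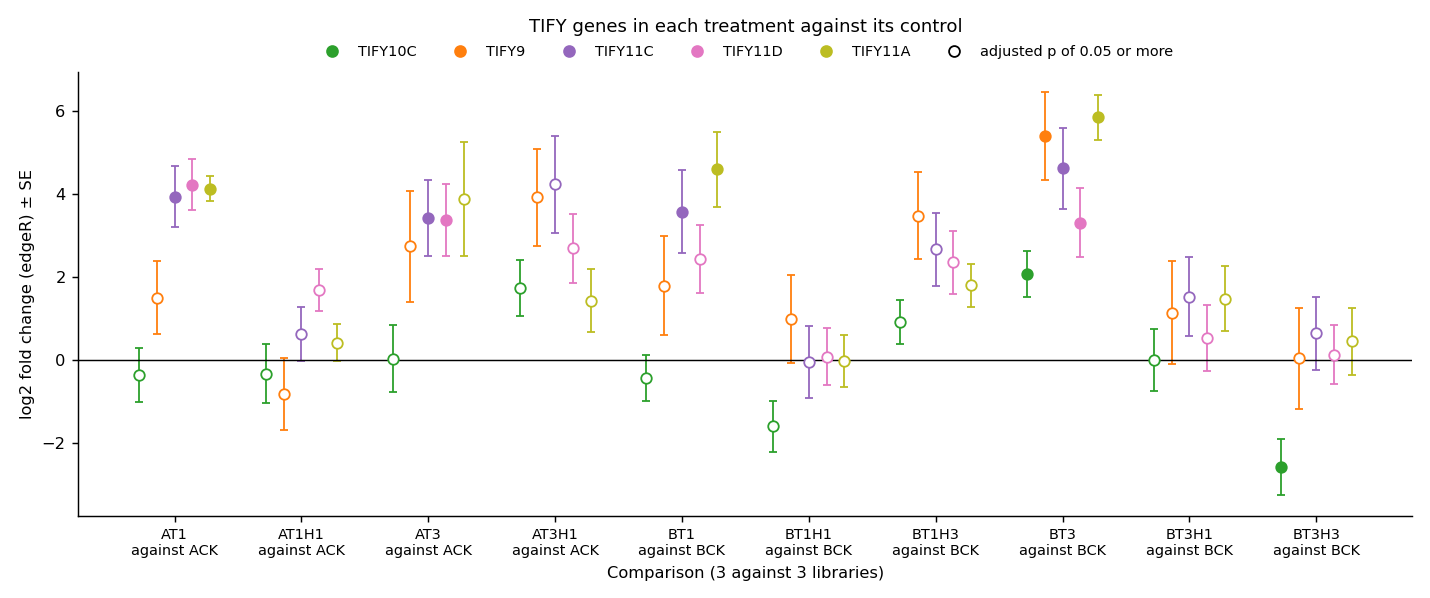
Points give the edgeR log2 fold change of each TIFY gene in 10 treatments against the control of the labelled cultivar, error bars are 1 SE, and filled points had an adjusted p under 0.05. All 5 points are filled and above 0 in BT3, 3 are filled in AT1, and TIFY10C alone is filled below 0, in BT3H3.

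The next comparison took DC907 after 3 days of cold. In BT3 against BCK all 5 TIFY genes were upregulated, where 17.2% of all genes tested were. The log2 fold change was 5.84 ± 0.54 (SE) for TIFY11A with an adjusted p of 0.00485, and 5.40 ± 1.06 for TIFY9 with an adjusted p of 0.0137. TIFY11C stood at 4.62 ± 0.98 (adjusted p = 0.0164), TIFY11D at 3.31 ± 0.82 (adjusted p = 0.0254) and TIFY10C at 2.07 ± 0.55 (adjusted p = 0.0296). For each of the 5 genes every BT3 library was above every BCK library, as for 24.7% of the 22929 genes with a mean FPKM of 1 or more. The median log2 fold change was 4.62 over the 5 genes and -0.09 over all genes. Leaving out BT3 replicate 3 left 1 call, TIFY11A, and lowered the DEGs among all genes from 7898 to 928. In that fit the adjusted p was 0.0606 for TIFY9, 0.0644 for TIFY11C, 0.0846 for TIFY11D and 0.0923 for TIFY10C, while their log2 fold changes moved by little, to 5.36, 4.58, 3.25 and 2.12. Leaving out BT3 replicate 1 or BCK replicate 1 left 3 calls each, without TIFY10C and TIFY11D. These fits called 20.4% and 27.2% of all genes in either direction, against 33.9% with all 6 libraries. TIFY10C was also lost without BT3 replicate 2 or BCK replicate 3 (adjusted p = 0.0747 and 0.0698).

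Going from 1 to 3 days of cold in DC907, BT3 against BT1, TIFY10C rose by a log2 fold change of 2.57 ± 0.26 (SE), with an adjusted p of 0.00485 by edgeR. TIFY9 rose by 3.66 ± 0.67 with an adjusted p of 0.0174. These were 2 of the 5 genes, where 9.3% of all genes tested were upregulated. TIFY11C (1.10 ± 0.51), TIFY11D (0.92 ± 0.50) and TIFY11A (1.29 ± 0.71) had adjusted p of 0.170, 0.230 and 0.236. Neither TIFY10C nor TIFY9 had been called in BT1 against BCK. The call of TIFY9 was lost without BT3 replicate 3 (3.61, adjusted p = 0.0817), and that of TIFY10C held in all 6 fits that left out 1 library.

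**Figure D4:**
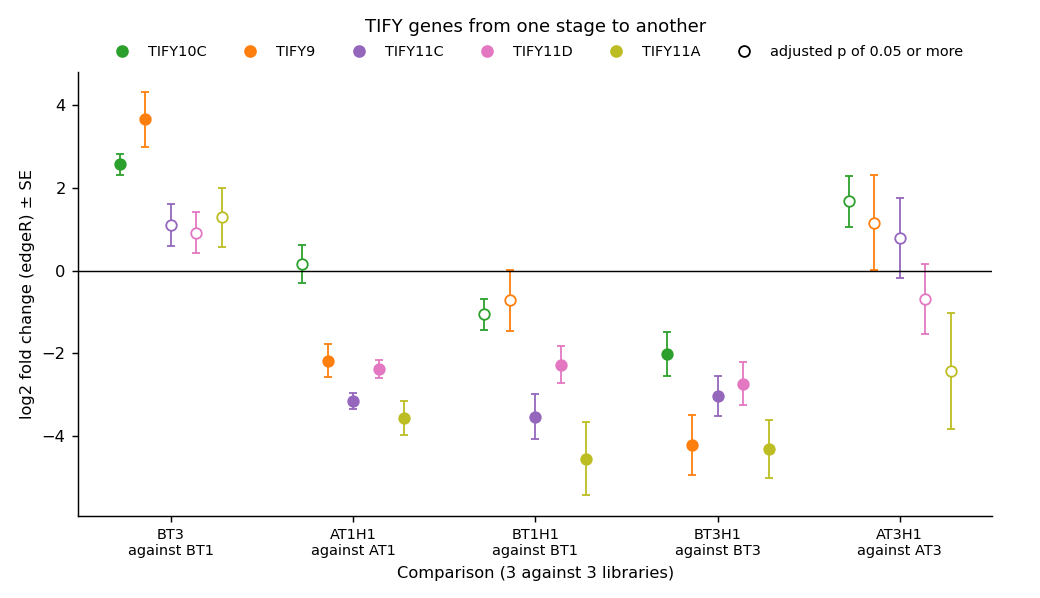
Points give the edgeR log2 fold change of each TIFY gene between 2 stages, error bars are 1 SE, and filled points had an adjusted p under 0.05. Filled points lie above 0 for TIFY10C and TIFY9 in BT3 against BT1, and below 0 for 4 genes in AT1H1 against AT1, for 3 in BT1H1 against BT1 and for 5 in BT3H1 against BT3.

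The return to room temperature was tested by comparing 1 day of recovery with the end of the cold. In AT1H1 against AT1, 4 of the 5 genes were downregulated, where 23.1% of all genes tested were. TIFY11A fell by a log2 fold change of -3.57 ± 0.42 (SE, adjusted p = 0.000765) and TIFY11C by -3.16 ± 0.20 (adjusted p = 0.000125). TIFY11D fell by -2.38 ± 0.23 (adjusted p = 0.000379) and TIFY9 by -2.18 ± 0.41 (adjusted p = 0.00445). TIFY10C, which had not passed in AT1 against ACK, stood at 0.16 ± 0.46 (adjusted p = 0.789). All 4 calls held in each of the 6 fits that left out 1 library, and that of TIFY9 was lost in the joint fit of 36 libraries (-2.23, adjusted p = 0.0951).

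In BT1H1 against BT1 the 3 TIFY11 genes were downregulated, and 18.3% of all genes tested were. The log2 fold change was -4.55 ± 0.89 (SE) for TIFY11A, -3.53 ± 0.55 for TIFY11C and -2.28 ± 0.45 for TIFY11D, with edgeR adjusted p of 0.0109, 0.00587 and 0.0112. TIFY10C at -1.06 ± 0.37 (adjusted p = 0.0608) and TIFY9 at -0.72 ± 0.74 (adjusted p = 0.477) did not pass. DESeq2 called TIFY10C as well (-1.09, adjusted p = 0.0254), and thus 4 of the 5, where it called 38.5% of all genes in either direction. TIFY11D had an adjusted p of 0.0517 without BT1H1 replicate 2, and the other calls held without any 1 library.

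In BT3H1 against BT3 all 5 genes were downregulated, where 23.9% of all genes tested were. TIFY11A fell by -4.32 ± 0.70 (SE) and TIFY9 by -4.23 ± 0.72 on the log2 scale, with edgeR adjusted p of 0.00381 and 0.00448. TIFY11C stood at -3.04 ± 0.48, TIFY11D at -2.74 ± 0.52 and TIFY10C at -2.01 ± 0.54, with adjusted p of 0.00339, 0.00642 and 0.0215. Each gene was lower in every BT3H1 library than in every BT3 library, as were 20.4% of the 22929 genes. The call of TIFY10C was lost without BT3 replicate 2 or 3 or BT3H1 replicate 1 (adjusted p = 0.0510, 0.0628 and 0.0718). The comparisons of an end-of-cold group with its control and with its recovery share the end-of-cold libraries.

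Against the plants not cooled, 0 of the 5 genes passed after 1 day of recovery in AT1H1, BT1H1 or BT3H1. The tests there called 0.00878% of all genes upregulated and 0% downregulated in AT1H1, 0% in BT1H1, and 3.54% upregulated and 3.87% downregulated in BT3H1. Before adjustment 5459, 6546 and 7441 of all genes had a p under 0.05, and of the TIFY genes 1, 1 and 0. The log2 fold changes of the 5 genes ran from -0.81 to 1.69 in AT1H1, from -1.59 to 1.00 in BT1H1 and from 0.02 to 1.53 in BT3H1. The AT1H1 value of 1.69 ± 0.51 (SE) was that of TIFY11D, whose AT1H1 libraries were all above its ACK libraries. Its adjusted p was 0.137 by edgeR, 0.0226 by DESeq2, which called 14% of all genes there, and 0.0129 without ACK replicate 2, when TIFY11C also passed (1.81, adjusted p = 0.0177), and up to 0.409 in other alternatives. DESeq2 called 0 of the 5 genes in BT1H1 and in BT3H1.

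The longer recovery was sampled in DC907 only, after 1 and after 3 days of cold. Each group was tested against BCK, and a difference between BT1H3 and BT3H3 was not tested. In BT1H3 against BCK, TIFY9 stood at 3.48 ± 1.04 (SE), TIFY11C at 2.67 ± 0.87, TIFY11D at 2.36 ± 0.76 and TIFY11A at 1.80 ± 0.53 on the log2 scale, with every BT1H3 library above every BCK library, as for 28.1% of the 22929 genes. TIFY10C stood at 0.92 ± 0.54. None of the 5 passed by edgeR, with adjusted p from 0.0898 to 0.282, and neither did any other gene (0% called). Before adjustment 4 of the 5, and 6968 of all genes, had a p under 0.05. DESeq2 called 4 of the 5, with adjusted p of 0.00456 to 0.0184, where it called 20.7% of all genes in either direction. Without BCK replicate 2 the edgeR test called TIFY10C, TIFY9 and TIFY11C (adjusted p = 0.0231, 0.0302 and 0.0225) among 3119 DEGs, 13.3% of all genes.

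In BT3H3 against BCK, TIFY10C was downregulated with a log2 fold change of -2.57 ± 0.68 (SE) and an adjusted p of 0.0455, and 9.73% of all genes tested were downregulated. It was the 1 call of a lower TIFY level in the 10 tests against CK. Of the 6 fits that left out 1 library, the call held in that without BCK replicate 1. It was lost without BCK replicate 2 or 3 (adjusted p = 0.0662 and 0.0613) and without BT3H3 replicate 1, 2 or 3 (0.123, 0.141 and 0.126). The other 4 genes had log2 fold changes of 0.05 to 0.65, each within 1 SE of 0.

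The libraries labelled AT3 and AT3H1 were compared with both controls. In AT3 against ACK, TIFY11C (3.42 ± 0.92 SE, adjusted p = 0.0455) and TIFY11D (3.37 ± 0.86, adjusted p = 0.0397) were upregulated by edgeR, where 10.2% of all genes were. TIFY11A (3.88 ± 1.37, adjusted p = 0.0900) and TIFY9 (2.74 ± 1.34, adjusted p = 0.184) did not pass, and TIFY10C stood at 0.04 ± 0.80. TIFY11A passed with DESeq2 (adjusted p = 0.00597), in the joint fit (0.00333) and without the library labelled AT3 replicate 2 (0.0196). DESeq2 thus called 3 of the 5, and 33.8% of all genes in either direction. Those of TIFY11C and TIFY11D by edgeR were lost without ACK replicate 1, ACK replicate 3, or the library labelled AT3 replicate 1 or 3, with adjusted p of 0.0933 to 0.152. With BCK as the control TIFY11C (4.05 ± 1.09, adjusted p = 0.0455) and TIFY11A (6.41 ± 1.59, adjusted p = 0.0375) passed, where 9.69% of all genes were upregulated. TIFY11D then had an adjusted p of 0.0662.

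In AT3H1 against ACK, 0 of the 5 genes passed by edgeR, where 6.55% of all genes were upregulated and 7.7% downregulated. Before adjustment 4 of the 5, and 8066 of all genes, had a p under 0.05. The log2 fold changes were all above 0, from 1.43 ± 0.75 (SE) for TIFY11A to 4.23 ± 1.18 for TIFY11C, with adjusted p of 0.0549 to 0.214. DESeq2 called 4 of the 5, all but TIFY11A, and 29.4% of all genes. So did edgeR without ACK replicate 2, with 22.3% of all genes called. Without the library labelled AT3H1 replicate 3 edgeR called the 3 TIFY11 genes and 12% of all genes. With BCK as the control TIFY11A passed (3.99 ± 0.90, adjusted p = 0.0384), where 5.75% of all genes were upregulated. In AT3H1 against AT3, 0 of the 5 passed, where 6.55% of all genes were downregulated, 5.15% were upregulated and 7281, with 1 of the TIFY genes, had an unadjusted p under 0.05. DESeq2 called 1 of the 5, TIFY10C, there (adjusted p = 0.0439), and 25.3% of all genes. TIFY10C stood at 1.67 ± 0.61 and TIFY11A at -2.43 ± 1.40. With 1 library left out TIFY11A ran from -3.03 to -0.17. A difference from BT3H1 against BT3 was not tested. In BT3 against AT3, 0 of the 5 genes and 0% of all genes passed by edgeR, while 4108 genes, TIFY10C among them, passed 0.05 before adjustment. DESeq2 called TIFY10C and 9.47% of all genes there (adjusted p of TIFY10C = 0.0492, up to 0.263 in the other alternatives that kept all libraries).

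Beside the TIFY genes, 9 genes of hormone synthesis and signalling were read. Their identifiers come from the study's text, where they were picked on these samples, and a further NCED identifier of that text was not analysed here. They include NCED genes, which make a precursor of abscisic acid, CYP707A7, which breaks abscisic acid down, and the kinase gene SAPK2 of abscisic acid signalling. The others are a lipoxygenase of jasmonate synthesis, CKX8 of cytokinin breakdown, a flavin-containing monooxygenase of auxin synthesis and a pair of ethylene receptors. Of those tested, 6 of 7 were upregulated in AT1, 5 of 7 in BT1 and 5 of 8 in BT3, where 16.8%, 13% and 17.2% of all genes were. In AT1 the monooxygenase (BGIOSGA015673) had a log2 fold change of 4.51 ± 0.39 (SE, edgeR adjusted p = 0.00401) and CYP707A7 (BGIOSGA029635) one of 4.76 ± 0.61 (adjusted p = 0.00613). All 7 tested were downregulated in AT1H1 against AT1 and in BT1H1 against BT1, and 6 of 8 in BT3H1 against BT3, where 23.1%, 18.3% and 23.9% of all genes were.

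From BT1 to BT3 the hormone genes went both ways. Of 8 tested, 4 were downregulated, where 8.18% of all genes were, the monooxygenase (-2.79 ± 0.32 SE), the ethylene receptors (-1.41 ± 0.33 for BGIOSGA009308 and -1.40 ± 0.30 for BGIOSGA009973) and NCED BGIOSGA013244 (-1.44 ± 0.35). CKX8 (BGIOSGA016782) was upregulated, with a log2 fold change of 6.41 ± 0.70 and an edgeR adjusted p of 0.00598. NCED BGIOSGA025169 stood at 2.92 ± 0.87 (adjusted p = 0.0583). The CKX8 FPKM was 4.48 to 11.3 in BT3 and at most 2.93 in any library of the other groups. In BT1 it was 0.0386 to 0.152. Against BCK, CKX8 did not pass in BT3 (3.38 ± 1.20 SE, edgeR adjusted p = 0.0690). The same NCED gene, BGIOSGA025169, was upregulated in BT3 against BCK (6.31 ± 0.88, adjusted p = 0.00738), with 91.1 to 222 FPKM in BT3 and 0.639 to 5.14 in BCK. The lipoxygenase gene BGIOSGA037588 passed the filter on low counts in none of the comparisons, and had its highest mean in BT3, at 0.248 to 1.02 FPKM.

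**Figure D5:**
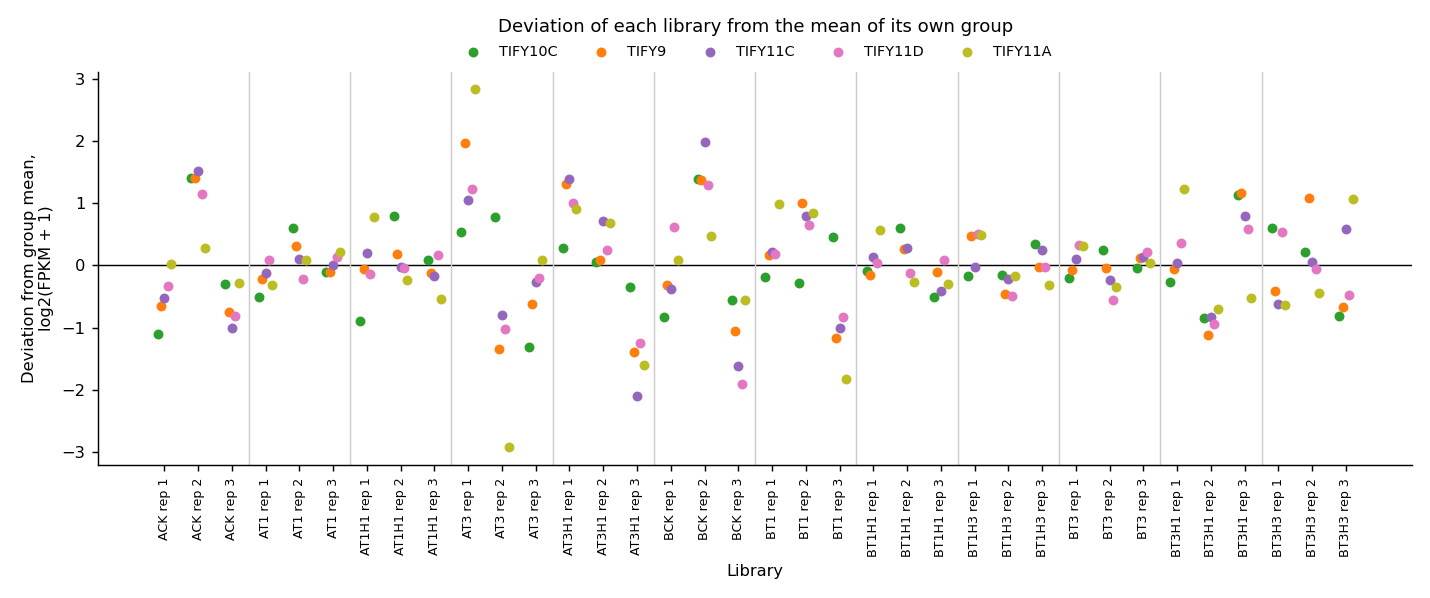
Each point gives how far 1 library lay above or below the mean of its own group for 1 TIFY gene, in log2(FPKM + 1), with the 36 libraries in order along the axis. In ACK replicate 2, BCK replicate 2 and the library labelled AT3 replicate 1 all 5 points lie above 0, and in BCK replicate 3, BT3H1 replicate 2 and the library labelled AT3H1 replicate 3 all lie below.

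Replicates of 1 group differed in their TIFY levels, and the question was whether the 5 genes deviated together. The mean of its own group was subtracted from each library's log2(FPKM + 1), so that the treatments do not enter. In 10 of the 36 libraries all 5 genes lay on the same side of their group means, 5 times above and 5 times below. In BCK replicate 2 the deviations were 1.39 for TIFY10C, 1.38 for TIFY9, 1.98 for TIFY11C, 1.29 for TIFY11D and 0.47 for TIFY11A. In the library labelled AT3H1 replicate 3 they were -0.34, -1.39, -2.11, -1.25 and -1.60 in the same order of genes.

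Over the 36 libraries these deviations were correlated in 7 of the 10 pairs of genes. The test was a two-sided permutation test with 100000 shuffles within groups and Benjamini-Hochberg adjustment over the 10 pairs. The share of all pairs of genes that would pass it was not computed. The highest correlation was that of TIFY9 and TIFY11C, with r = 0.86 (permutation p = 8e-05, adjusted 0.0004) and rho = 0.83 (permutation p = 0.00017, adjusted 0.0017). TIFY9 and TIFY11D had r = 0.84 (permutation p = 6e-05, adjusted 0.0004) and rho = 0.73 (permutation p = 0.00053, adjusted 0.0018). TIFY11C and TIFY11D had r = 0.83 (permutation p = 0.00032, adjusted 0.0008) and rho = 0.68 (permutation p = 0.0018, adjusted 0.0044). Without the 2 libraries farthest from the median of the first gene these r were 0.84, 0.80 and 0.80. Among the 22928 genes whose mean FPKM reached 1, TIFY11C had the highest r with TIFY9 of all. The other pairs that passed were compared with the same genes. The r of TIFY11A with TIFY11C, TIFY11D and TIFY9 exceeded those of 97.2% to 98.2% of genes with either member. That of TIFY10C with TIFY9 exceeded 97.7% for TIFY10C and 95.1% for TIFY9. Many other genes thus deviated as closely with the genes of these pairs.

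TIFY11A was linked less closely. Its r was 0.63 with TIFY11C (permutation p = 0.00029, adjusted 0.0008), 0.61 with TIFY11D (permutation p = 0.002, adjusted 0.004) and 0.63 with TIFY9 (permutation p = 0.015, adjusted 0.024). The corresponding rho were 0.69, 0.55 and 0.51, with permutation p of 0.00047, 0.007 and 0.019 and adjusted values of 0.0018, 0.014 and 0.028. Without the 2 farthest libraries r was 0.62, 0.61 and 0.54. Without the 6 libraries labelled AT3 and AT3H1 the r with TIFY11D was 0.42 (adjusted permutation p = 0.092) and that with TIFY9 was 0.34 (adjusted permutation p = 0.25). Without BT1 replicate 3, the library with the lowest total, the r with TIFY9 was 0.58 and its adjusted permutation p 0.058.

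TIFY10C was linked with TIFY9 at r = 0.53 (permutation p = 0.028, adjusted 0.04) and rho = 0.55 (permutation p = 0.0085, adjusted 0.014). Without ACK replicate 2 and BCK replicate 2 its r with TIFY9 was 0.40. With TIFY11C, TIFY11D and TIFY11A its r was 0.46, 0.40 and -0.12, with permutation p of 0.05, 0.13 and 0.68 and adjusted values of 0.062, 0.14 and 0.68. The corresponding rho were 0.42, 0.33 and -0.12, with permutation p of 0.048, 0.14 and 0.57 and adjusted values of 0.06, 0.15 and 0.57. Without the same 2 control libraries these r were 0.26, 0.23 and -0.20. The relation of TIFY10C to the others at the level of single libraries thus rested in part on replicate 2 of the controls. No relation of the deviations of the 5 genes to that of the library total was detected. Here r ran from -0.06 to 0.31 and the adjusted permutation p from 0.54 to 0.72. FPKM are already divided by that total, so this does not bear on other differences between libraries.

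Across the 12 group means, as a description without a test, TIFY11C and TIFY11D had r = 0.94, and TIFY11A had 0.86 with each of them. TIFY10C had r = 0.79 with TIFY9, 0.58 with TIFY11C, 0.47 with TIFY11D and 0.46 with TIFY11A. TIFY9 had 0.79 with TIFY11C, 0.70 with TIFY11D and 0.54 with TIFY11A. By Spearman's rho TIFY9 had 0.66 with TIFY10C, 0.82 with TIFY11C and 0.78 with TIFY11D. These points share the libraries and the scaling of each group.

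The genes most like each TIFY gene over the 36 libraries were ranked by the Pearson correlation of log2(FPKM + 1), group differences included, among 22928 genes and as a description. For TIFY11C the gene BGIOSGA013814 came first with r = 0.94, and it also came first for TIFY11D with r = 0.93. TIFY11D itself was the gene of rank 3 for TIFY11C, and TIFY11C that of rank 2 for TIFY11D. For TIFY11C the next genes were BGIOSGA002348 (0.93) and BGIOSGA009230 (0.90), and for TIFY11D they were BGIOSGA026796 and BGIOSGA022502 (both 0.91). TIFY9 was most like BGIOSGA019502 (0.88), BGIOSGA006276 (0.87) and BGIOSGA002733 (0.85). TIFY10C was most like BGIOSGA034613 (0.85), BGIOSGA023944 (0.79) and BGIOSGA002455 (0.73), and TIFY9 ranked 5 for it. TIFY11A was most like BGIOSGA036440, BGIOSGA034486 (both 0.91) and BGIOSGA016214 (0.90), with TIFY11C and TIFY11D at rank 150 and 169. The files do not name these genes.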

How the data were processed

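Reads had been aligned by the authors with HISAT2 to the Ensembl Plants indica reference (release 41), and genes missing from its annotation were added with Cufflinks and Cuffcompare. The authors deposited raw counts for each gene. The authors also deposited FPKM, which equal the counts divided by gene length and library total to within a relative deviation of 1.2e-07. The counting program, strand setting and treatment of multi-mapped reads are not given in the sources used here. The 5 TIFY genes, the 9 hormone genes, the tests and the alternatives were chosen with earlier results of these data known. Named genes are these and, for each TIFY gene, the 3 most correlated others with a mean FPKM of at least 1.

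Groups were taken from the sample labels, 3 libraries each. Each comparison was fitted on its 6 libraries (12 for interactions), without a block, by edgeR 4.0.16 in R 4.3.3 with TMM, filterByExpr and robust dispersions, tested on simulated data, and p-values were adjusted over all genes tested. The SE was obtained as log2 fold change over root F. Values within 1 SE of 0 are given without a direction. Each test was repeated with DESeq2 1.42.0, with size factors by the median ratio in edgeR, with every gene of at least 1 count, in a joint fit of the 36 libraries, with a replicate block, and without each library in turn. The libraries labelled AT3 and AT3H1 were also set against BCK. Covariation was computed with Python 3.11.15, numpy 2.4.6 and scipy 1.17.1 on log2(FPKM + 1). The alternatives were log2(FPKM + 0.1), TMM-scaled FPKM, only groups with a mean FPKM of at least 1, and leaving out BT1 replicate 3 or the libraries labelled AT3 and AT3H1. Marker genes for the cultivars had all 9 CK, T1 and T1H1 libraries of one cultivar above all 9 of the other, and group means at least 2 apart in log2(CPM + 0.1). Precision is given as the spread over the 3 libraries of a group, which holds counting error too, and no intervals of single counts are given.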

Additional observations from a re-analysis of the deposited data

How the results depend on the processing

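Of 94 log2 fold changes of the TIFY genes, 60 were larger than 1 SE, and all 60 kept their sign in every alternative. Of the 34 within 1 SE of 0, 27 changed sign in at least one, and of these 34 only TIFY11C in AT1H1 without ACK replicate 2 was called in any fit. The number of the 5 genes called moved more. DESeq2 called 1 in AT1H1 against ACK, 4 in AT3H1 against ACK, 4 in BT1H3 against BCK and 1 each in AT3H1 against AT3, BCK against ACK and BT3 against AT3. These fits called 14%, 29.4%, 20.7%, 25.3%, 0.654% and 9.47% of all genes. One fit of all 36 libraries called 4 in AT3 against ACK, 4 in AT3H1 against ACK, 3 in BT1H3 against BCK and 2 in AT3H1 against AT3, with 46.5%, 36.2%, 12.3% and 37.7% of all genes called. With BCK as the control the count in AT3H1 was 1, with 12.7% of all genes called. Without the filter it was 1 in BT1 against BCK and 0 in BT3H3 against BCK, with 13.8% and 10.4% called. Leaving out 1 library gave, against ACK, 2 to 4 calls in AT1 (with 4.98% to 31.6% of all genes called) and 0 to 2 in AT1H1 (0% to 22.7%). Also against ACK, it gave 0 to 3 in AT3 (0% to 27.7%) and 0 to 4 in AT3H1 (0% to 22.3%). Against BCK it gave 0 to 2 in BT1 (0.19% to 20.6%) and 0 to 3 in BT1H3 (0% to 13.3%). Also against BCK, BT3 had 1 to 5 (3.84% to 32.3%) and BT3H3 0 to 1 (0% to 17.6%). BT3 against BT1 had 1 to 2 (0.915% to 23%), and AT1H1 against AT1 had 4 in each fit (33.2% to 49.7%). BT1H1 against BT1 had 2 to 3 (15.1% to 42.8%) and BT3H1 against BT3 had 4 to 5 (30.7% to 47.9%). The cause was not tested.

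Whether same-numbered libraries share more than a number is not given in the sources used here. In none of the comparisons did all 3 numbers deviate together with a correlation over 0.1. With the replicate block 0 TIFY genes were called in AT1 against ACK, AT3 against ACK and BT3H3 against BCK, where 0 of all genes were. In BT3 against BT1 1 TIFY gene was called with the block, where 1.07% of all genes were. The libraries correlated best with their own number 6 of 6 times in AT3H1 against ACK and 0 to 3 of 6 times in the other comparisons of pairs of groups. The adjusted p for the 3 genes of AT1 was then 0.0501 to 0.0509. In BT3 against BCK, BT3H1 against BT3, AT1H1 against AT1 and BT1H1 against BT1 the block changed no count by more than 1.5 times.

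With log2(FPKM + 0.1), TMM-scaled FPKM or only groups with a mean of at least 1, each of the 7 correlated pairs kept an adjusted permutation p under 0.05, and TIFY10C with TIFY11C passed on TMM-scaled FPKM (r = 0.48, adjusted permutation p = 0.042) and without BT1 replicate 3 (r = 0.52, adjusted permutation p = 0.041).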
